A study of Mus musculus with 9 samples.

Results

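Nkx2-5, Tbx5, Tbx20, Hand2, Mef2c, Isl1, Smyd1 and Rbm24 are regulators of the early heart, 8 of the 15965 genes that the arrays name. All 20 probe sets that the platform annotation assigns to 1 of these 8 symbols alone were taken, out of 36899 probe sets on 3 array designs (29197 of them with 1 symbol). They were measured in total RNA of whole mouse embryos at embryonic day 7.5, during gastrulation, in 3 pools of different beta-catenin (Ctnnb1) genotype. The knockout pool held about 50 embryos that lose beta-catenin where the cytokeratin 19 promoter drives Cre recombinase, so cells without Cre keep the gene. The floxed/deleted pool carried 1 floxed and 1 deleted allele and the wild type/floxed pool carried 1 wild-type and 1 floxed allele. Whether these control pools carried Cre, and how many embryos they held, is not stated in the labels. Each pool was hybridised to 1 array of each design (MG_U74Av2, MG_U74Bv2 and MG_U74Cv2, called A, B and C). No value has a replicate, so differences are given without a test, an error or a p-value.

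As background, cardiac progenitors arise from mesoderm that leaves the primitive streak and moves forward to form the cardiac crescent. Nkx2-5 (a homeodomain factor), Tbx5 and Tbx20 (T-box factors), Hand2 (a basic helix-loop-helix factor), Mef2c (a MADS-box factor) and Isl1 (a LIM-homeodomain factor of the second heart field) bind DNA and act together on heart genes. The other two members are not DNA-binding factors, despite being grouped with them: Smyd1 is a muscle methyltransferase and Rbm24 is an RNA-binding protein that controls splicing in heart and skeletal muscle. Beta-catenin is the transcriptional partner of Tcf/Lef factors in canonical Wnt signalling and also a component of cell junctions. The study of these embryos concerned heart formation, and the comparison asks how the heart regulators stood in the knockout pool against both controls.

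The sequences just before 4 members are shown. They are Tbx20 and Rbm24, with a measured probe set low in the knockout pool, Hand2, whose measured probe set was not, and Smyd1, where letters of a Tcf/Lef site stand. No expression result here rests on these letters. The stretches are RefSeq sequence of build GRCm38.p6, printed 5′ to 3′ on the strand of the gene and ending at the last base before the annotated gene. Tbx20 is chr9:24774304-24774553 (minus strand), Rbm24 is chr13:46418050-46418101 (plus), Hand2 is chr8:57320733-57320982 (plus) and Smyd1 is chr6:71262282-71262531 (minus). Capitals mark a match to a Tcf/Lef word (CTTTG followed by AA, AT, TA or TT), a GATA word (AGATAA) or a TATA word (TATAAA), each searched on both strands.
Tbx20: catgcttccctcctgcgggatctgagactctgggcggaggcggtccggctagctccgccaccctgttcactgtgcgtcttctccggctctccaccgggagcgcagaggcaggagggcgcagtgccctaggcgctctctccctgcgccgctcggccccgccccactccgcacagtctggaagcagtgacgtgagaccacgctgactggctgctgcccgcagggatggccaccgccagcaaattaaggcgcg
Rbm24: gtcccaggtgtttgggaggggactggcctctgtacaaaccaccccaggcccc
Hand2: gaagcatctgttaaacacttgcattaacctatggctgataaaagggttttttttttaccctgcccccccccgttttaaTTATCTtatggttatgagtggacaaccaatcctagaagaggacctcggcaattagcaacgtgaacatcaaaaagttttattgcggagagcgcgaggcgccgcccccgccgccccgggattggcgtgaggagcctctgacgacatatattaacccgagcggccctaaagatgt
Smyd1: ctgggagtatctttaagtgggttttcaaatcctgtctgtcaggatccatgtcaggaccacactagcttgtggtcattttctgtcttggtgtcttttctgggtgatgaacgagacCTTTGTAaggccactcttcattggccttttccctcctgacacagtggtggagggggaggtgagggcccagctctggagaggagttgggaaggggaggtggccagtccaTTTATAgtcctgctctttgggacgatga
The Smyd1 stretch holds CTTTGTA starting 136 bases before the start and a TATA word, read on the other strand, starting 28 bases before it. The Hand2 stretch holds a GATA word on the other strand starting 172 bases before the start. The Tbx20 and Rbm24 stretches hold no match to these words, but that of Rbm24 has 52 bases where the others have 250. In the full windows of 300 bases (250 before a start and 50 after), which the table gives for 7 of the 8 genes in 9 windows, 2 windows held a Tcf/Lef word, 1 of Smyd1 and 1 of the 3 of Mef2c. Over all 32851 such windows 16.9% held one. A GATA word stood in 2 of the 9 windows (11.2% of all) and a TATA word in 3 (13.6% of all). The T-box word TCACACC (3.98% of all), searched in the same way, stood in 0 of the 9. A match in these windows is a description of letters, and the arrays did not measure binding.

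Signals are linear intensities with 1 value per probe set. A floor was set at the median signal of all values of a design (57.3 on A, 90.0 on B and 80.9 on C), and a probe set counted as measured if at least 1 pool lay above it. A signal below that median may still be real, since the floor was chosen for the comparison and says nothing about detection. Of the 20 probe sets 7 were measured, 5 on design B, 2 on C and 0 of 9 on A, and 3 lay above the floor in all pools. The measured ones belong to Rbm24, Tbx20, Tbx5, Hand2 and Mef2c. Nkx2-5, Isl1 and Smyd1 had no measured probe set. In the 7 measured probe sets the knockout stood at least 2-fold lower than both controls in 2 (Rbm24 and Tbx20) and at least 2-fold higher in 0. Over all measured probe sets of a design the knockout stood at least 2-fold lower than both controls in 1.32% on B and 3.26% on C, and at least 2-fold higher in 1.43% and 5.19%. By the same count over the 7 probe sets, 0 stood 2-fold apart in either direction in floxed/deleted or in wild type/floxed. Over all measured probe sets floxed/deleted was 2-fold lower than both others in 1.26% on B and 3.74% on C and 2-fold higher in 1.85% and 6.8%. Wild type/floxed was lower in 1.12% and 4.43% and higher in 1.76% and 6.33%, shares of a size like those of the knockout. Fewer cells of a type and less RNA per cell cannot be told apart in pooled embryos.

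**Figure D1:**
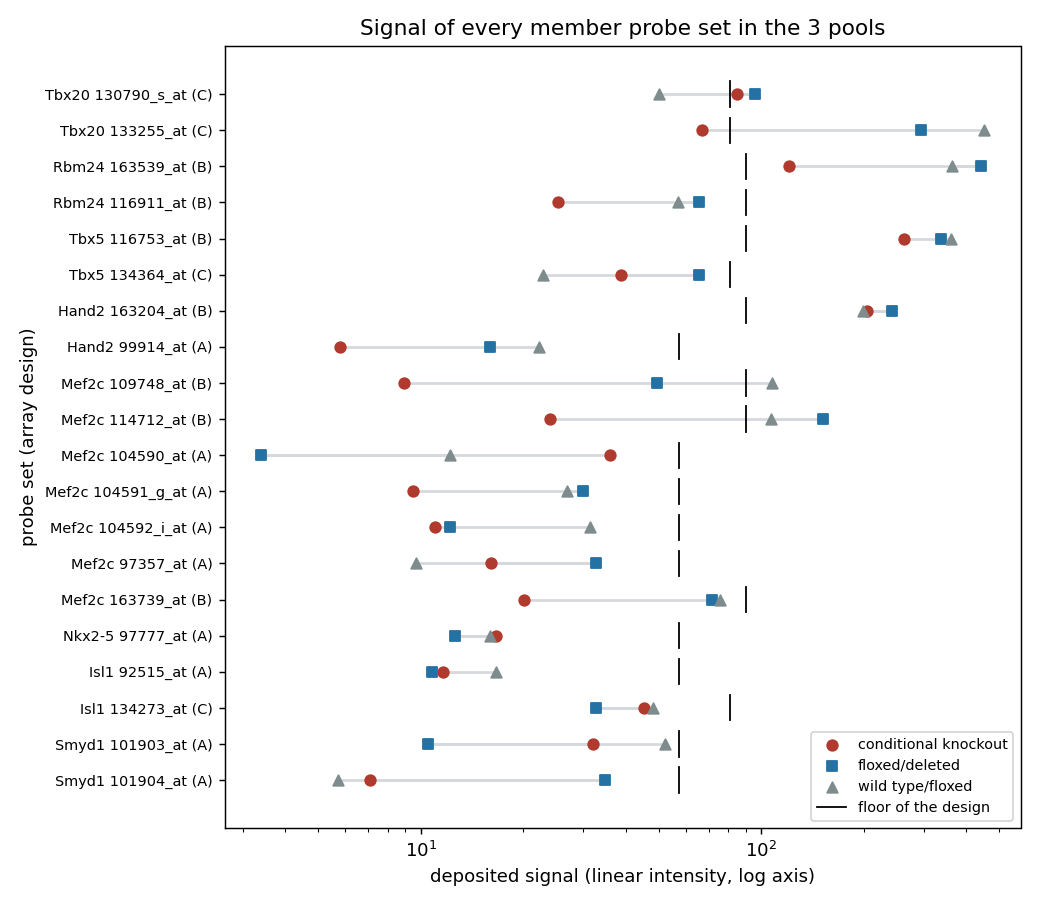
Deposited signal (linear intensity, log axis) of the 20 probe sets in the knockout (circles), floxed/deleted (squares) and wild type/floxed (triangles) pools, 1 array per point, with a black bar at the floor of the design. Rbm24 163539_at and Tbx20 133255_at have the knockout far to the left of both controls, and the probe sets of Nkx2-5, Isl1 and Smyd1 lie to the left of the floor in every pool.

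Rbm24, which regulates splicing of sarcomere transcripts, was the member with the largest range among those above the floor in all pools. Its probe set 163539_at on design B had a signal of 121 in the knockout, 441 in floxed/deleted embryos and 364 in wild type/floxed embryos. The knockout was the low pool, 3.02-fold below the nearer control and 3.66-fold below the other, while the controls were 1.21-fold apart. Ordered by the difference from the nearer control, it was 22nd from the lowest of 8303 measured probe sets on that design. The other Rbm24 probe set, 116911_at, lay below the floor with 25.3 in the knockout, 65.7 in floxed/deleted embryos and 56.9 in wild type/floxed embryos. The order of the pools was the same in both, and without a floor the second was 2.25-fold lower than the nearer control.

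Tbx20, a T-box factor needed for growth of the heart tube, gave 2 unlike answers on design C. Probe set 133255_at had a signal of 67.0 in the knockout, 295 in floxed/deleted embryos and 452 in wild type/floxed embryos. The knockout was below the floor and both controls above it, so the difference from the nearer control was at least 3.65-fold, and it was 4.41-fold between the deposited signals. It was 25th from the lowest of 8750 measured probe sets. The controls were themselves 1.53-fold apart. Probe set 130790_s_at, whose suffix marks probes that match several transcripts, had 84.8 in the knockout, 95.9 in floxed/deleted embryos and 50.0 in wild type/floxed embryos. There the knockout lay between the controls and close to the floor, so the lower Tbx20 level rests on 1 probe set.

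Tbx5, a T-box factor of the first heart field and the left ventricle, had a signal of 263 in the knockout, 337 in floxed/deleted embryos and 362 in wild type/floxed embryos on 116753_at (design B). The knockout was the low pool, but by 1.28-fold from the nearer control. Between the control pools, log2 differences over all measured probe sets of the design, dim ones included, had a standard deviation of 0.59. The Tbx5 differences of -0.36 from the nearer control and -0.46 from the other were both smaller in size than that. The spread among probe sets as bright as this one was not measured. On this probe set the controls were 1.07-fold apart, and it was 815th from the lowest of 8303 measured probe sets. On 134364_at (design C), below the floor throughout, the pools stood at 38.6, 65.7 and 22.9 in the same order, with the knockout between the controls.

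Hand2, a factor of the second heart field and right ventricle that is also active in other mesoderm, had a signal of 204 in the knockout on 163204_at (design B). It had 243 in floxed/deleted embryos and 199 in wild type/floxed embryos. All pools were above the floor, and the knockout lay between controls that were 1.22-fold apart. The probe set 99914_at (design A) was below the floor in every pool, with 5.8, 16.0 and 22.2 in the same order of pools. There the knockout was the low pool, so the Hand2 probe sets differ in the place of the knockout, at signals that differ in their relation to the floor.

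**Figure D2:**
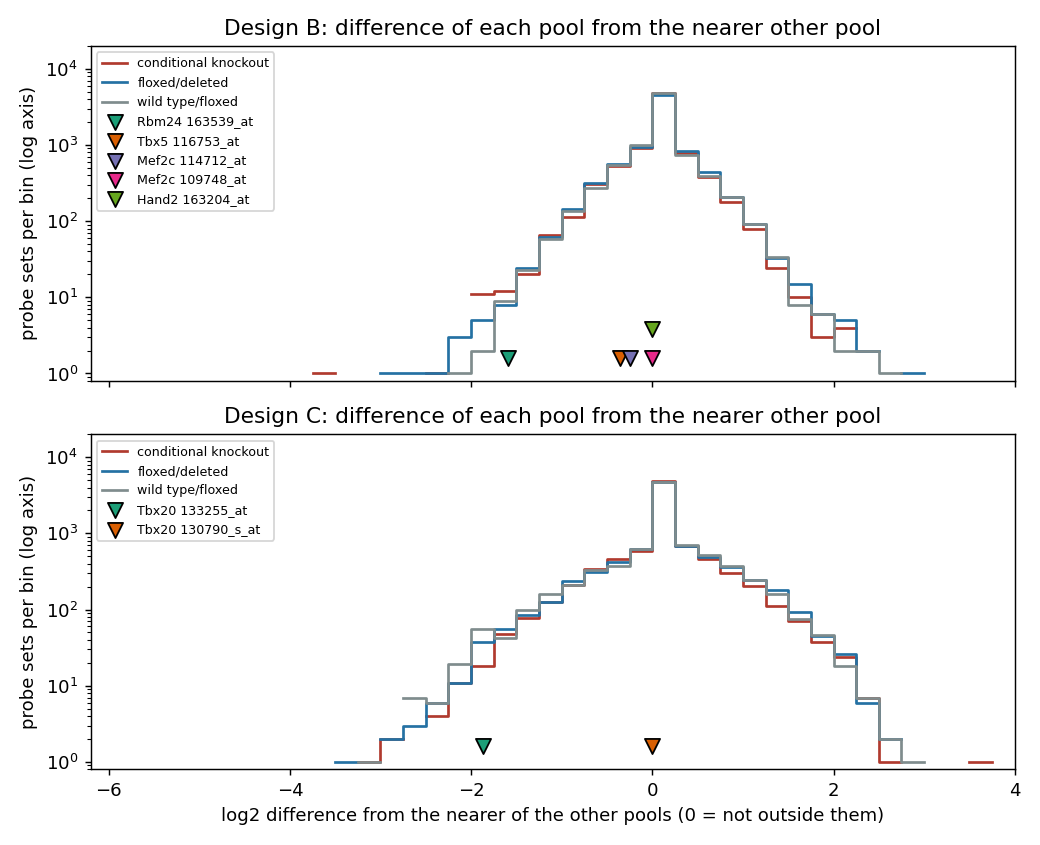
Number of measured probe sets (log axis) by log2 difference of a pool from the nearer of the other pools, in bins of 0.25, for each pool on designs B and C, where 0 holds all probe sets not outside the other pools. Triangles mark the knockout's value for the member probe sets: Rbm24 163539_at at -1.59 and Tbx20 133255_at at -1.87 lie in the lower tail, which all 3 pools have.

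Mef2c, a MADS-box factor of cardiac, skeletal and vascular muscle, had the most probe sets, 4 on design A and 3 on design B. On B, 114712_at had 24.0 in the knockout, 152 in floxed/deleted embryos and 107 in wild type/floxed embryos. Probe set 109748_at had 8.9, 49.3 and 108 in the same order, and 163739_at had 20.1, 71.7 and 75.4. In all 3 the knockout was far below both controls, by 3.57-fold to 5.54-fold between deposited signals. With the floor the difference was at least 1.19-fold for 114712_at and 0 on the log2 scale for the others, because the nearer control also lay below the floor. Probe set 109748_at counted as measured through wild type/floxed alone and 163739_at did not.

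The 4 Mef2c probe sets on design A were all below the floor and did not share an order. The knockout was the high pool on 104590_at (36.0 against 3.4 in floxed/deleted embryos and 12.2 in wild type/floxed embryos) and the low pool on 104591_g_at (9.5 against 29.9 and 26.8). On 104592_i_at it stood at 11.0 against 12.2 and 31.4, and on 97357_at at 16.1 against 32.6 and 9.7. Over all 7 probe sets the knockout was thus below both controls in 5, between them in 1 and above them in 1.

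Nkx2-5, one of the earliest markers of cardiac progenitors, had 1 probe set, 97777_at on design A. Its signal was 16.6 in the knockout, 12.6 in floxed/deleted embryos and 16.0 in wild type/floxed embryos, all below the floor. Isl1 had 11.6, 10.8 and 16.6 on 92515_at (design A) and 45.1, 32.7 and 48.0 on 134273_at (design C), in the same order of pools. On both the knockout lay between the controls and below the floor. Smyd1 had 32.0, 10.5 and 52.3 on 101903_at and 7.1, 34.7 and 5.7 on 101904_at, both on design A. The floxed/deleted pool was lowest on the first and highest on the second, so the 2 Smyd1 probe sets ordered the controls in opposite ways.

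Agreement between probe sets of a gene was examined on the deposited scale without a floor. Across the 20 probe sets the knockout was below both controls in 10, between them in 8 and above them in 2. Of the 7 genes with more than 1 probe set, Rbm24 had the knockout lowest on every probe set. Isl1 and Smyd1 had it between the controls on every probe set, and Tbx20, Tbx5, Hand2 and Mef2c had probe sets of unlike order. The log2 difference from the nearer control ranged over 0.42 between the Rbm24 probe sets, 2.14 between those of Tbx20, 0.36 for Tbx5, 1.46 for Hand2 and 4.03 for Mef2c. Probe sets of a gene read the same RNA pools, so they are not replicates of a genotype.

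By design, and without a floor, the knockout was at least 2-fold lower than both controls in 5 of 7 member probe sets on B, against 10.5% of all 12477 probe sets there. These were the 3 of Mef2c and both of Rbm24. On A it was 2 of 9 against 8.2% of all probe sets, and on C 1 of 4 against 12.6%. In the other direction it was 1 of 9 on A against 5.08%, and 0 on B (6.81%) and C (9.5%). The 7 probe sets on B come from 4 genes. Without a floor most such differences lie among dim signals, and floxed/deleted was 2-fold lower than both others in 9.99% of probe sets on B.

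**Figure D3:**
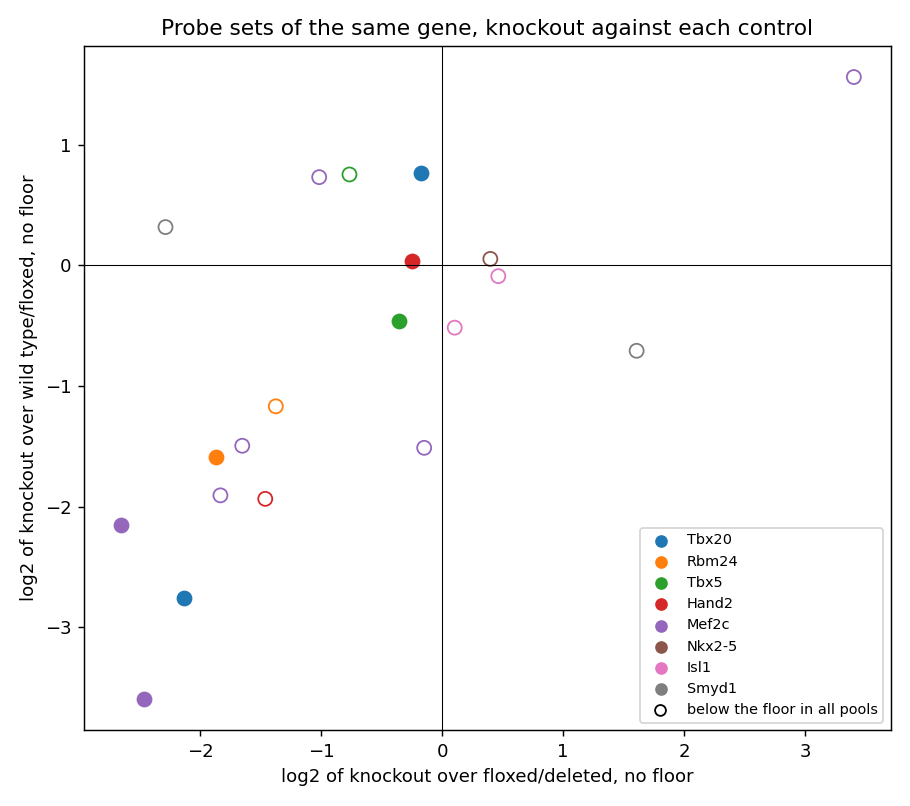
Log2 ratio of the knockout to floxed/deleted (horizontal) and to wild type/floxed (vertical) for the 20 probe sets, without a floor, with 1 colour per gene and open circles for probe sets below the floor in all pools. Points below and left of both zero lines have the knockout below both controls: 10 of the 20, among them both of Rbm24 and all 3 of Mef2c on design B.

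Other regulators of cardiac mesoderm and the heart fields showed both directions. Of 30 listed genes 25 had a singly named probe set used here and 21 were measured, taking the brightest probe set per gene. The knockout lay below both controls by 1.5-fold or more in 5 and above them in 2, where 5.63% and 7.35% of all measured probe sets did so. These shares pool the 3 designs and count every measured probe set, not 1 per gene. Designs differ in them: at 2-fold the knockout was lower in 1.32% on B and 3.26% on C, and higher in 1.43% and 5.19%. The 5 lower genes were Foxc2, a forkhead factor of mesoderm and the outflow tract (68.2 in the knockout, 233 in floxed/deleted embryos and 323 in wild type/floxed embryos), Smarcd3, a chromatin remodelling subunit (126, 608 and 392), the homeobox gene Irx3 (137, 296 and 343), Foxf1, a forkhead factor of lateral mesoderm (187, 312 and 465), and Hey1, a Notch effector (126, 219 and 197). A second Foxc2 probe set (21.3, 60.7 and 83.8) and a second Foxf1 probe set (23.7, 70.5 and 82.8) had the same order of pools. That of Hey1 did not, with 110 in the knockout between 149 and 89.5. Of the 2 other Smarcd3 probe sets above the floor in all pools, 108911_at (175, 111 and 233) had the knockout between the controls and 168558_f_at (183, 217 and 403) had it 1.19-fold lower, so the larger Smarcd3 difference rests on 1 probe set. The 2 higher genes were Fgf10, a growth factor of the second heart field (146, 60.2 and 26.0, with the knockout alone above the floor), and Hopx (184, 119 and 118). A second Fgf10 probe set, 141051_at, had 12.6, 22.1 and 81.4, with wild type/floxed alone above the floor. The factors Gata4 (310, 142 and 244), Gata6 (148, 94.2 and 151) and Mesp1 (344, 427 and 310) were not 1.5-fold outside both controls. The floxed/deleted pool lay below both others in 2 genes and above in 1 (5.69% and 8.86% of all measured probe sets), and wild type/floxed lay below in 2 and above in 0 (5.66% and 8.21%). The median log2 shift of the knockout from the mean of the controls was -0.14, against -0.04 over all measured probe sets. With the mean over the probe sets of a gene the counts were 3 lower and 1 higher, with either control alone 4 were higher, and with the floor at the 70th percentile 0 were higher. The shares above are for the median floor and both controls, and those at these other settings are not given.

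Sarcomere and cardiac muscle genes, the contractile products of heart cells, were measured for 15 of 25 listed genes. In the knockout 3 were at least 1.5-fold lower and 3 higher. Pooled over the 3 designs, 5.63% and 7.35% of all measured probe sets were so. With the floor at the 70th percentile, or at 2-fold, the counts were 1 lower and 0 higher. With no floor, at 1.5-fold and with genes below the median floor also taken, they were 8 lower and 5 higher. Those shares are for the median floor at 1.5-fold and do not apply to these other settings. Without a floor, 8.2%, 10.5% and 12.6% of all probe sets on A, B and C were at least 2-fold lower. By the same count 5.08%, 6.81% and 9.5% were higher. The no-floor shares are for 2-fold and the counts of 8 and 5 for 1.5-fold, so they are not on the same scale. At the median floor the genes at least 1.5-fold lower were Tnni1 (42.0, 138 and 188), Tnnt2 (18.1, 132 and 129) and Myl7, the atrial myosin light chain (139, 213 and 213). The higher ones were Myh7 (109, 28.6 and 36.3), Myl4 (88.1, 9.3 and 26.0) and Des (98.8, 57.3 and 10.8), with the controls at or below the floor in each. These higher genes were read on design A, for which the 1.5-fold share alone is not given. Other probe sets of these genes did not share the order of pools: the knockout lay between the controls on Myh7 98616_f_at (20.3, 18.9 and 70.5, with wild type/floxed alone above the floor) and on Myl4 160487_at (24.6, 54.4 and 9.8, all below it). Among the lower genes Myl7 had the knockout lowest on 165273_f_at (33.9, 119 and 165) but between the controls on 170292_at (38.1, 32.1 and 81.1), and the other probe sets of Tnni1 and Tnnt2 were below the floor in all pools. The floxed/deleted pool lay below both others in 0 genes and above in 2 (5.69% and 8.86% of all measured probe sets), and wild type/floxed in 0 either way (5.66% and 8.21%). The median shift was -0.09.

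**Figure D4:**
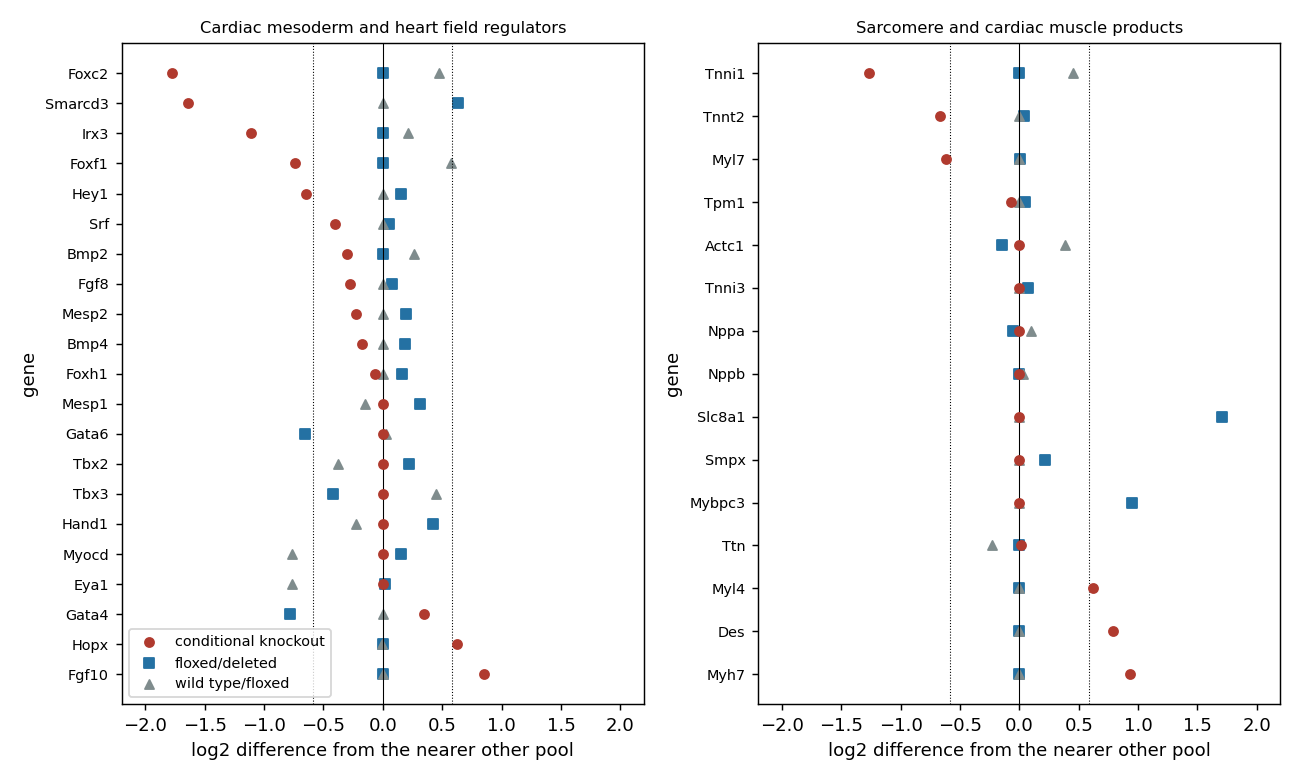
Log2 difference of each pool from the nearer of the other pools for the measured heart field regulators (left) and sarcomere genes (right), 1 probe set per gene, with dotted lines at 1.5-fold and 0 for a pool not outside the others. Foxc2, Smarcd3 and Irx3 have the knockout below -1 on the left and Tnni1 on the right, and 0 regulators and 1 sarcomere gene (Slc8a1) have a control pool more than 1 from both others.

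Markers of other tissues also differed in the knockout pool. The knockout counts that follow stand beside the same shares of all measured probe sets, pooled over the designs: 5.63% lower and 7.35% higher. Nascent and paraxial mesoderm genes had 3 of 6 measured members at least 1.5-fold lower in the knockout (Dll1, Tbx6 and Tcf15) and 0 higher, and their signals summed to 876, where floxed/deleted had 1517 and wild type/floxed 1444. On its brightest probe set Dll1 stood at 155 against 499 and 475. The order was not shared by 171295_r_at on design C (87.0, 5.0 and 19.0), where the knockout was highest and alone above the floor. Below the floor in all pools, 169609_r_at (52.6, 9.5 and 45.1) had the knockout highest and 161634_r_at (5.3, 6.6 and 3.3) had it between the controls. Visceral endoderm genes had 4 of 15 higher and 0 lower, with a summed signal of 50124 against 28727 and 32397, and Apoa1 at 16068 against 7336 and 6813. Epiblast and neuroectoderm genes had 3 of 8 higher and 0 lower, with a sum of 4926 against 2859 and 2356. Of these sums the brightest Utf1 probe set gave 2735, 1080 and 795. Blood and endothelial genes (Mef2c is also expressed in endothelium) had 1 of 8 higher and 0 lower, with sums of 853, 775 and 644, and 6 of 14 below the floor. Trophoblast genes had 2 of 10 higher and decidual genes (a list that holds Hand2 itself) 1 of 5 higher, with 0 lower in either list. The higher decidual gene was Des, on the same probe set that was counted among the sarcomere genes. Skeletal muscle genes had 0 of 3 apart in the knockout. Their deposited signals summed to 78.1, 244 and 142, but all knockout values (49.2, 24.8 and 4.1) lay below the floor of 57.3. By the same 1.5-fold count floxed/deleted had 1 gene higher in each of the trophoblast, epiblast and skeletal muscle lists and 1 lower in the decidual list. Wild type/floxed had 1 lower in each of the trophoblast, blood and epiblast lists and 1 higher in each of the trophoblast and decidual lists, and neither control stood apart in the mesoderm or visceral endoderm lists. As a measure of RNA integrity, the signal at the 5′ end of Actb over that at its 3′ end was 0.607 in the knockout against 0.685 and 0.730 on design B and 0.613 against 0.698 and 0.681 on C. The same ratio for Gapdh did not put the knockout lowest, since on B it was 0.92 in the knockout, 0.90 in floxed/deleted embryos and 1.02 in the others, and on C 0.878, 0.912 and 0.825 in that order. The part of these differences in the lower Rbm24 and Tbx20 signals was not tested. Nor was it tested for Mef2c on design B, where no probe set was 1.5-fold below both controls with the floor at the median. Krt19, the gene whose promoter drives Cre, stood at 232 against 97.6 and 119. The targeted gene Ctnnb1 stood at 1376 against 1509 and 1773, and the place of its probes relative to the deleted exons was not used here.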

How the data were processed

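The deposited values are linear intensity values, 1 per probe set, in 3 tables of 3 arrays. The sources used here do not state how probes were summarised, scaled and labelled. Trimmed means (without the lowest and highest 2%) were 150.0 to 150.1 on each deposited array. Array types came from the scanner sheets, which hold no other entry.

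Arrays of a design were scaled to equal trimmed means, values below the pooled median (50th percentile) were raised to it, and log2 was taken. Each pool was compared with the nearer of the other 2, at 1.5-fold and 2-fold. The number of arrays limits the precision. The calling code was run on simulated signals without noise, with large changes set in bright probe sets only. That checks the code and tests neither calls near the floor nor the genotypes. Gene names came from the platform annotation and only probe sets with 1 symbol were named. Python 3.11.15, numpy 2.4.6, pandas 2.3.3 and matplotlib 3.10.9 were used.

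The named genes were all members, Ctnnb1, Krt19, up to 4 genes per heart or paralog list and direction (by fold) at least 1.5-fold outside both controls in the knockout, the 2 brightest genes of each marker list and the 3 probe sets most like Rbm24. Hey1, Gata4, Gata6, Mesp1, Slc8a1, Tbx6, Tcf15, Hand1, Mef2a and Mef2d were named outside this rule or under a second list after their values were seen. The members and lists were chosen with earlier results of these data known.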

Additional observations from a re-analysis of the deposited data

How the results depend on the processing

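The count of member probe sets at least 2-fold lower in the knockout was 2. Raising the floor to the 70th percentile gave 1 (Rbm24, with 4 probe sets measured) and dropping it gave 8 (all 20 probe sets taken). The count higher was 0, and 1 with no floor. A floor at the 30th percentile, equal medians, quantile normalization, the signals as deposited, either control alone, leaving out suffix-marked probe sets and a 1.5-fold threshold each gave 2 or 3 lower and 0 higher. With no floor, 8.2%, 10.5% and 12.6% of all probe sets on A, B and C were 2-fold lower, and 5.08%, 6.81% and 9.5% higher. At 1.5-fold, 5.63% of all measured probe sets were lower and 7.35% higher. Shares at the other settings are not given, so those counts have no background to be read against. The log2 difference of Rbm24 163539_at ranged from -1.87 to -1.11, that of Tbx20 133255_at from -2.48 to -0.84, that of Tbx5 116753_at from -0.46 to -0.26 and that of Mef2c 114712_at from -2.15 to -0.24 over the settings in which they were measured. The median shift of the heart field regulators ranged from -0.31 to -0.03 and that of sarcomere genes from -0.58 to 0. Skeletal muscle genes had no median shift, because none was measured, with the floor at the 70th percentile. No paired analysis was possible because there is 1 pool per genotype. Orders of pools among signals below the floor, which include every probe set of Nkx2-5, Isl1 and Smyd1, describe single arrays without replicates and carry no call.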

Other observations

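Paralogs of the members were measured for 19 of 33 listed genes. The knockout lay above both controls by 1.5-fold or more in 0 of them, against 7.35% of all measured probe sets, with the 3 designs pooled. Below both it lay in 2, against 5.63%. They were Tbx6, a T-box factor of paraxial mesoderm (100.3 in the knockout, 268 in floxed/deleted, 307 in wild type/floxed), and Mef2b (67.1, 134 and 117), whose second probe set was below the floor in all pools. The floxed/deleted pool lay below both others in 1 and above in 3 (5.69% and 8.86% of all measured probe sets), and wild type/floxed in 1 each (5.66% and 8.21%). Hand1, the paralog of Hand2, stood at 333, 446 and 284 in the same order of pools, with the knockout between the controls as on the brighter Hand2 probe set. Mef2a (149, 180 and 138) and Mef2d (297, 325 and 181) had the knockout between the controls as well.

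Among 3978 other singly named probe sets of design B above the floor in all pools, those nearest to Rbm24 163539_at in their centred log2 profile were Fam189a1 (101 in the knockout, 326 and 268 in the controls, at a distance of 0.15), Nabp2 (207, 753 and 537, at 0.17) and Ctif (240, 916 and 877, at 0.21). The distance is Euclidean over 3 pools, and 4 probe sets lay within 0.25.

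The brightest genes of the marker lists are given in the order knockout, floxed/deleted and wild type/floxed. Apoe, a visceral endoderm apolipoprotein, stood at 11812, 9142 and 10236. The epiblast genes Utf1 and Pou5f1 stood at 2735, 1080 and 795 and at 1444, 1203 and 1107, with the knockout the high pool in both. On design C, Utf1 had the knockout as the low pool on 168612_r_at (97.7, 126 and 109, all above the floor). The same order of the knockout held for 170476_r_at (42.6, 72.5 and 102, with wild type/floxed alone above the floor). Etv2, a factor of endothelial precursors, stood at 234, 155 and 139, and Lmo2, a blood and endothelial cofactor, at 154, 149 and 168. Gata3 of the trophoblast stood at 487, 249 and 64.4 on its brightest probe set. On 100924_at (32.0, 17.3 and 45.9) and 111479_at (8.8, 19.4 and 4.9), below the floor in all pools, the knockout lay between the controls. Wnt4 of the decidua list stood at 526, 244 and 903, and the muscle factors Myod1 and Myog at 49.2, 101 and 44.2 and at 24.8, 76.3 and 34.6, with floxed/deleted alone above the floor.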
